A study of Mus musculus with 48 samples.

Results

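Gadd45a, Gadd45b, Gadd45g, Cdkn1a and Btg2 were followed in the liver of mice that lacked Bmal1 in adipocytes. They are 5 of the 22354 genes in the deposited count table, and all 5 were among the 13644 genes with enough reads to be tested. The genes were taken by their symbols. They were chosen by measured values of the same data, the KO minus WT difference over all times: Gadd45g was named because its liver level was lower in KO mice, and the other 4, its relatives in the family and in growth arrest, were named with those differences known. The KO minus WT differences of these genes are therefore given as a description, with their SE and no p. How many of them were past a threshold is stated beside the share of all genes, and again for other settings at the end, and nothing is read from it.

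The GADD45 proteins are small stress-inducible proteins. They bind and activate the kinase MEKK4 upstream of p38 and JNK, interact with PCNA and p21, and take part in active DNA demethylation together with base excision repair enzymes. Cdkn1a encodes p21, the inhibitor of cyclin-dependent kinases that p53 induces, and Btg2 encodes an antiproliferative protein that recruits the CCR4-NOT deadenylase. Genes of this kind are induced by stress, cytokines and DNA damage, and in liver also after partial hepatectomy.

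Livers came from 48 female C57BL/6J mice, 23 labelled KO and 25 labelled WT, at 6 collection times from ZT0 to ZT20, spaced by 4 h (ZT is the time label of the collection, in hours). KO mice carried an adipocyte-specific deletion of Bmal1, the circadian clock's transcriptional activator whose gene symbol is Arntl, so hepatocytes were not the targeted cells; the promoter that drove the deletion and the genotype of the WT mice beyond that name are not given in the labels used here. Each genotype had 4 mice at each time, except 3 KO and 5 WT mice at ZT16. All mice of both genotypes had been fasted for 24 h and kept in constant darkness for the last day, and were 28.75 to 105 weeks old. Mean age was lowest at ZT20, 42.1 weeks in both KO and WT mice, and body weight averaged 24.2 ± 3.57 g in KO and 21.8 ± 1.997 g in WT mice (SD). At ZT16 mean age differed between genotypes, 60.3 weeks in KO and 73.4 weeks in WT mice. Mean weight also differed between times. In KO mice it was highest at ZT8, 27.95 g, and lowest at ZT20, 20.15 g, where WT mice averaged 22.4 g and 20.35 g. Each library carried its own age and weight label, and no other label says how the mice relate to one another. Of 23 KO and WT pairs with the same replicate number at the same time, 22 had the same age label. Whether same-numbered mice were matched is not known. The main tests took all mice as unpaired, and blocks of same-numbered mice were run as an alternative.

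Depth was nearly the same in all libraries, 12841969 to 13009797 reads without Alb, the serum albumin gene. Arntl in whole liver ranged over 1.58, 12.6 and 37.04 CPM (lowest, median and highest) in KO mice and 0.819, 15.4 and 43.8 CPM in WT mice, and the genotypes overlapped; adipocytes are the targeted cells, and liver RNA cannot serve as a check of the genotype labels. Hepatocyte markers (9 genes) summed to 32568 to 66223 CPM in KO mice and 27523 to 62565 CPM in WT mice, so that the libraries held liver RNA. Of 10 neutrophil markers, 10 had a KO minus WT difference below 0, with a median of −1.30 (log2), and none was past the test. Of all tested genes, 51.0% were below 0. Below 0 were also 7 of 9 hepatocyte, 8 of 11 lymphocyte and 8 of 10 stellate cell and fibroblast markers. So were 5 of 9 sinusoidal endothelium, 3 of 5 cholangiocyte, 1 of 5 erythroid and 0 of 3 adipocyte markers. Of 13 Kupffer cell and macrophage entries, with Emr1 repeated, 3 were. None of these was past the test. The neutrophil sum ranged over 12.3, 31.2 and 1780 CPM in KO mice and 9.64, 65.7 and 1778 CPM in WT mice. Lcn2 held most of that sum on average, with means of 92.3 CPM in KO and 109 CPM in WT mice. The next highest marker, S100a9, had means of 13.4 and 14.6 CPM. The sum therefore mostly reflects Lcn2 and is no measure of neutrophil number. None of the 10 was at 0 in all libraries, and their part in the results was not tested. In bulk RNA a smaller number of cells of a type and less RNA per cell cannot be told apart.

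The promoter windows of the 5 genes are shown because the sequence motifs in them differ. Each runs from 250 bases before to 50 bases after a RefSeq transcription start (build GRCm38.p6, not the mm9 build of the count table), is written 5′ to 3′ on the gene's strand, and carries in capitals the motif named for it. The canonical E-box CACGTG, the sequence that clock activators of the CLOCK and BMAL1 type bind, is in capitals in Gadd45g (chr13:51846425-51846724, plus strand) at position −142 from the start and in Gadd45b (chr10:80929841-80930140, plus strand) at −185. The cyclic AMP response element TGACGTCA, which CREB binds, is in capitals in Btg2 (chr1:134079106-134079405, minus strand) at −166. The p53 half-site, a single decamer and not a whole p53 response element, is in capitals in Cdkn1a and Gadd45a. It is at −73 and −51 in the first of the Cdkn1a windows (chr17:29090729-29091028, plus strand) and at −40 in Gadd45a (chr6:67037358-67037657, minus strand). The second Cdkn1a window, of another start downstream (chr17:29093519-29093818, plus strand), is not printed.
Gadd45g: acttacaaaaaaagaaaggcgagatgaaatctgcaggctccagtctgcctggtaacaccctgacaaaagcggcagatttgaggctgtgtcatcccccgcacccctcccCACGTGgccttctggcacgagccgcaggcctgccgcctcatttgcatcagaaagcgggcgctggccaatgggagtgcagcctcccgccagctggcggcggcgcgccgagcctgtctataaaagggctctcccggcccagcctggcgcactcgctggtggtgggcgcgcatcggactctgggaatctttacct
Gadd45b: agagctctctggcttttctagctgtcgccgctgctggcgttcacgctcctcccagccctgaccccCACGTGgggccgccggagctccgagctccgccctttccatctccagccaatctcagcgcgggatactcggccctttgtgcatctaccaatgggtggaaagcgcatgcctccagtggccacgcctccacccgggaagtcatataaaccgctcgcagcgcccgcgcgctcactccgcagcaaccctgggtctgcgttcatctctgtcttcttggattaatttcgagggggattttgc
Btg2: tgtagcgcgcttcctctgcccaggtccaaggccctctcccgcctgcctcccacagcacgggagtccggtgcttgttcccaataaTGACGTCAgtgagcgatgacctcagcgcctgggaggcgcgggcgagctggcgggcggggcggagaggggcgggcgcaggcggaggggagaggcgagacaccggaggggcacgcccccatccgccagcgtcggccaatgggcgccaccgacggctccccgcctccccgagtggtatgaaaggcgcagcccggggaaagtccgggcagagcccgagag
Cdkn1a: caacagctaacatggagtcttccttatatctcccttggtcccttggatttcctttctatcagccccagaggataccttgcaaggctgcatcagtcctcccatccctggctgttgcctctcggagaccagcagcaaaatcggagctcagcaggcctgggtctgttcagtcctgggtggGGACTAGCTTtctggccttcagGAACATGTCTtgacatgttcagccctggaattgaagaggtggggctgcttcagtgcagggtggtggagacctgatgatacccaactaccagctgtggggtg
Gadd45a: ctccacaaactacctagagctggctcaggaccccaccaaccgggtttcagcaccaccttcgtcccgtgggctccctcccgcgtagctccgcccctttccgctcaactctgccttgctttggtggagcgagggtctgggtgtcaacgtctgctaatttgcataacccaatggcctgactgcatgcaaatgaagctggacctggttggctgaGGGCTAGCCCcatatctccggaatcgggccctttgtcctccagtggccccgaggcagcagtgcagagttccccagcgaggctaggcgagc

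The 5 genes had 6 windows among 32851 RefSeq windows, and both strands were searched. CACGTG occurred in 7.15% of all windows, TGACGTCA in 1.79% and the p53 half-site in 8.36%. CCAAT, the box bound by NF-Y, occurred in 37.4% of all windows and in those of Btg2, Gadd45a, Gadd45b and Gadd45g. TATAAA occurred in 13.6% of all windows and in those of Gadd45b and Gadd45g. The AP-1 sequence TGANTCA, in 7.81% of all windows, was in none of the 6, and the second Cdkn1a window held none of the motifs searched. No matches overlapped within these windows. A match describes letters in the sequence and shows no binding in these livers.

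Gadd45g (ENSMUSG00000021453, mm9 chr13:51942047-51943837), the cytokine-inducible family member, was the gene with the largest difference over all times. In KO mice its level was 3.08, 12.5 and 226 CPM (lowest, median and highest of 23), and in WT mice it was 3.499, 43.7 and 193 CPM (25 mice). CPM here is the count scaled to a common library size with TMM factors, which makes values comparable between mice but not between genes of different length. The mean over the 6 times was 1.34 lower in KO mice on the log2 scale (KO minus WT −1.34, SE 0.34). Pooled over the 6 times, the ranges of the genotypes overlapped almost completely. Within times, every KO mouse was below every WT mouse at ZT0 and ZT12, and the genotypes overlapped at the other times.

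At ZT0 Gadd45g was 33.5, 29.97, 29.1 and 15.99 CPM in KO mice, against 82.8, 89.6, 43.7 and 44.9 CPM in WT mice. At ZT4 it was 20.9, 10.2, 5.50 and 3.09 CPM in KO mice, against 42.6, 181, 8.67 and 15.6 CPM in WT mice. At ZT8 it was 7.10, 19.6, 3.08 and 4.43 CPM in KO mice, against 3.499, 10.5, 15.3 and 17.9 CPM in WT mice. Every KO mouse was below every WT mouse at ZT0, whereas at ZT4 and ZT8 the genotypes overlapped and a single WT mouse at ZT4 stood far above the others. At ZT12 it was 7.23, 7.67, 12.2 and 7.28 CPM in KO mice, against 35.4, 37.2, 25.6 and 193 CPM in WT mice. At ZT16 it was 17.1, 226 and 6.21 CPM in KO mice, against 67.8, 41.8, 31.95, 108 and 45.4 CPM in WT mice. At ZT20 it was 95.1, 29.98, 12.5 and 32.7 CPM in KO mice, against 53.9, 49.5, 150.1 and 101 CPM in WT mice. The genotypes did not overlap at ZT12, and at ZT16 a single KO mouse held the highest Gadd45g value of all 48 while the other 2 were below all 5 WT mice.

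The log2 differences of Gadd45g followed those values. KO minus WT was −1.27 (SE 0.80) at ZT0, −2.64 (SE 0.85) at ZT4, −0.47 (SE 0.82) at ZT8, −3.08 (SE 0.86) at ZT12, 0.50 (SE 0.80) at ZT16 and −1.06 (SE 0.80) at ZT20. Single mice set some of these values: without WT ZT4 replicate 2 the ZT4 difference was −1.16, without WT ZT12 replicate 4 the ZT12 difference was −1.93 (this mouse had a neutrophil marker sum of 463 CPM, where the other WT mice at ZT12 had 21.6 to 146 CPM), and without KO ZT16 replicate 2 the ZT16 difference was −2.34. WT ZT0 replicate 3 had a neutrophil marker sum of 1778 CPM and 43.7 CPM of Gadd45g, the lowest of the WT mice at ZT0. The part of this sum in the Gadd45g values was not tested. Over all times, the difference lay between −1.82, without KO ZT16 replicate 2, and −1.09, without WT ZT4 replicate 2.

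Btg2 (ENSMUSG00000020423, mm9 chr1:135971747-135975697), the antiproliferative partner of the CCR4-NOT deadenylase, had the next largest difference. Its level was 4.33, 11.2 and 64.7 CPM in KO mice and 8.67, 21.0 and 77.0 CPM in WT mice (lowest, median and highest), and the mean over times was −0.82 (SE 0.19) on the log2 scale, KO minus WT. At ZT0 Btg2 was 6.07, 16.7, 15.1 and 11.2 CPM in KO mice, against 26.3, 30.8, 29.6 and 41.8 CPM in WT mice. At ZT4 it was 13.0, 5.79, 4.93 and 5.80 CPM in KO mice, against 15.9, 29.6, 8.67 and 16.5 CPM in WT mice. All KO mice were below all WT mice at ZT0, and at ZT4 only the highest KO mouse exceeded the lowest WT mouse. At ZT8 Btg2 was 10.9, 23.7, 11.7 and 6.90 CPM in KO mice, against 21.0, 15.4, 12.5 and 14.7 CPM in WT mice. At ZT12 it was 7.08, 8.50, 7.50 and 8.63 CPM in KO mice, against 21.6, 17.4, 21.2 and 28.5 CPM in WT mice. The ZT12 groups did not overlap and the 4 KO values lay close together, while the ZT8 groups overlapped. At ZT16 Btg2 was 12.1, 64.7 and 4.33 CPM in KO mice, against 13.985, 14.1, 17.3, 18.5 and 15.99 CPM in WT mice. At ZT20 it was 22.6, 17.6, 12.4 and 19.9 CPM in KO mice, against 21.0, 26.8, 49.3 and 77.0 CPM in WT mice. The KO mouse with 64.7 CPM at ZT16 was the one highest in Gadd45g, and the ZT20 groups overlapped at 1 value each.

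The log2 differences of Btg2 were −1.39 (SE 0.46) at ZT0, −1.26 (SE 0.47) at ZT4, −0.26 (SE 0.46) at ZT8, −1.48 (SE 0.47) at ZT12, 0.76 (SE 0.46) at ZT16 and −1.26 (SE 0.46) at ZT20. Only the ZT16 value was above 0, and it was −0.96 without KO ZT16 replicate 2. Over all times the difference lay between −1.11, without that mouse, and −0.73, without KO ZT16 replicate 3.

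Cdkn1a (ENSMUSG00000023067, mm9 chr17:29227924-29237667), the p21 gene, differed less between the genotypes than between times. Its level was 2.14, 14.5 and 224 CPM in KO mice and 3.28, 54.7 and 122 CPM in WT mice (lowest, median and highest), and the mean over times was −0.65 (SE 0.26) on the log2 scale, KO minus WT. At ZT0 Cdkn1a was 24.3, 67.0, 34.8 and 47.04 CPM in KO mice, against 54.7, 122, 59.3 and 81.0 CPM in WT mice. At ZT4 it was 13.1, 9.66, 2.14 and 10.7 CPM in KO mice, against 12.7, 59.8, 9.12 and 30.3 CPM in WT mice. Both comparisons overlapped, with most WT mice above most KO mice. At ZT8 Cdkn1a was 4.19, 4.40, 3.52 and 2.70 CPM in KO mice, against 5.21, 5.88, 8.81 and 3.28 CPM in WT mice. At ZT12 it was 3.84, 14.5, 21.2 and 4.88 CPM in KO mice, against 6.72, 9.43, 25.0 and 25.5 CPM in WT mice. All 8 mice were low at ZT8, in both genotypes, and the ZT12 groups overlapped. At ZT16 Cdkn1a was 28.3, 126 and 5.06 CPM in KO mice, against 55.1, 78.0, 74.4, 97.8 and 64.1 CPM in WT mice. At ZT20 it was 224, 47.7, 58.4 and 81.6 CPM in KO mice, against 107, 32.4, 121 and 61.9 CPM in WT mice. The highest KO mouse stood above all WT mice at both of these times, KO ZT16 replicate 2 at ZT16 and KO ZT20 replicate 1 at ZT20. The neutrophil marker sum was 53.8 CPM in KO ZT16 replicate 2 and 1780 CPM in KO ZT20 replicate 1, the highest of all libraries. WT ZT0 replicate 3 had nearly the same sum, 1778 CPM, and 59.3 CPM of Cdkn1a, where WT mice at ZT0 had 54.7 to 122 CPM. The part of the sum in the Cdkn1a values was not tested.

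The log2 differences of Cdkn1a were −0.87 (SE 0.62) at ZT0, −1.65 (SE 0.65) at ZT4, −0.65 (SE 0.68) at ZT8, −0.59 (SE 0.64) at ZT12, −0.48 (SE 0.65) at ZT16 and 0.35 (SE 0.62) at ZT20. Without KO ZT16 replicate 2 the ZT16 value was −2.15, and without KO ZT20 replicate 1 the ZT20 value was −0.37.

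Gadd45b (ENSMUSG00000015312, mm9 chr10:80392836-80394949), the family member induced by NF-kappaB and TGF-beta signalling, was farthest below WT at ZT0 and ZT4. It was 3.44, 7.06 and 26.8 CPM in KO mice and 4.91, 12.6 and 25.4 CPM in WT mice (lowest, median and highest), a mean log2 difference of −0.52 (SE 0.17). At ZT0 Gadd45b was 6.15, 9.97, 5.19 and 10.1 CPM in KO mice, against 22.7, 21.9, 11.3 and 12.5 CPM in WT mice. At ZT4 it was 5.14, 4.19, 6.16 and 4.87 CPM in KO mice, against 6.44, 18.7, 6.66 and 11.05 CPM in WT mice. The genotypes did not overlap at either time, though at ZT4 the highest KO mouse lay just below the lowest WT mouse. The log2 difference was −1.12 (SE 0.43) at ZT0, −1.07 (SE 0.43) at ZT4 and −0.81 (SE 0.43) at ZT8, and lay between −0.17 and 0.13 at ZT12, ZT16 and ZT20, where the groups overlapped. Single mice moved the later values: it was −0.40 at ZT8 without WT ZT8 replicate 2, −0.66 at ZT16 without KO ZT16 replicate 2 and −0.59 at ZT20 without KO ZT20 replicate 1. At ZT4 it was −0.66 without WT ZT4 replicate 2.

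Gadd45a (ENSMUSG00000036390, mm9 chr6:66985090-66987451), the member that p53 induces directly, had nearly the same level in both genotypes. It was 1.57, 3.77 and 10.2 CPM in KO mice and 1.00, 4.34 and 8.56 CPM in WT mice (lowest, median and highest), and the mean difference was −0.10 (SE 0.16) on the log2 scale. Its raw counts, 12 to 136 a library, were the smallest of the 5 genes, and single values carry the most counting error. The log2 difference was above 0 at ZT4 (0.36, SE 0.39), ZT8 (0.26, SE 0.39) and ZT16 (0.16, SE 0.42), below 0 at ZT0 (−0.16, SE 0.40) and ZT12 (−0.35, SE 0.40), and farthest from 0 at ZT20 (−0.85, SE 0.40).

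**Figure D1:**
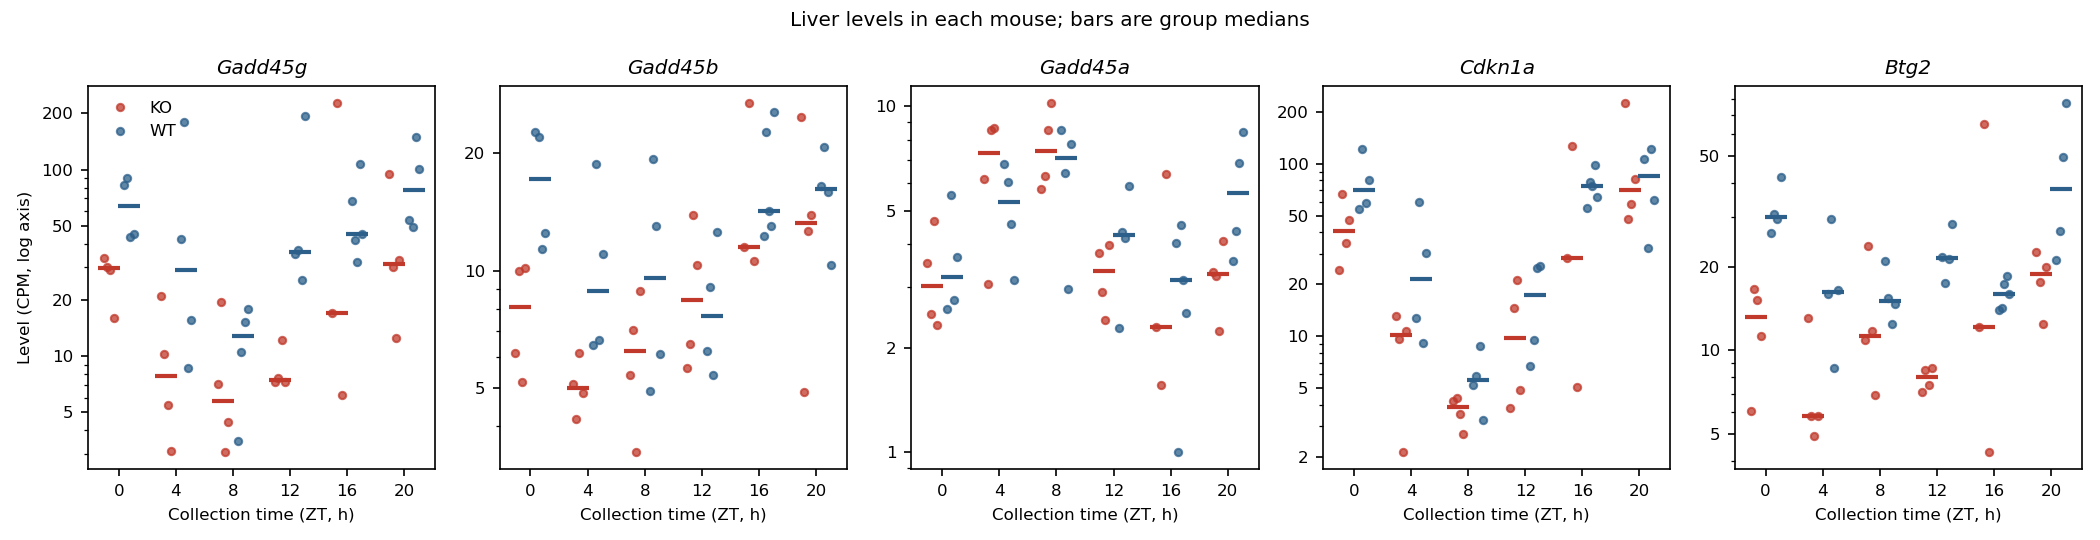
Each point is the level of 1 mouse in CPM on a log axis, against collection time, for KO mice (left of each pair) and WT mice (right); the bars are group medians. At ZT12 the 4 KO mice lie between 7.23 and 12.2 CPM of Gadd45g and the 4 WT mice between 25.6 and 193 CPM, and the KO mouse with 226 CPM stands alone at ZT16.

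Set side by side, all 5 genes had a mean difference below 0, as had 51.0% of all tested genes, with a median of −0.65 (log2) over the 5 against −0.0047 over all genes. With the threshold of 0.05 on the adjusted p from the edgeR quasi-likelihood test, 2 of the 5 genes, Gadd45g and Btg2, were past it, where 1.41% of all genes were and 0.792% were past it in the lower direction; since the contrast chose the genes, nothing is read from this count, which was 1 with the replicate block and 0 with body weight as a covariate. At single times none of the 5 was past the threshold, where the test called 0.0147% of all genes at ZT0, 0.0366% at ZT4, 0.022% at ZT16 and 0% at the other 3 times. The difference was below 0 at 5 of 6 times for Gadd45b, Gadd45g, Cdkn1a and Btg2, and at 3 of 6 for Gadd45a; 17.5% of all genes were lower at 5 times or more. All KO mice were below all WT mice for 3 of the 5 genes at ZT0 (Gadd45b, Gadd45g and Btg2; 1.78% of all genes), for 1 at ZT4 (Gadd45b; 3.99%) and for 2 at ZT12 (Gadd45g and Btg2; 1.88%). No member separated the groups at ZT8, ZT16 or ZT20, where 0.799%, 0.594% and 0.476% of all genes had all KO mice below all WT mice.

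**Figure D2:**
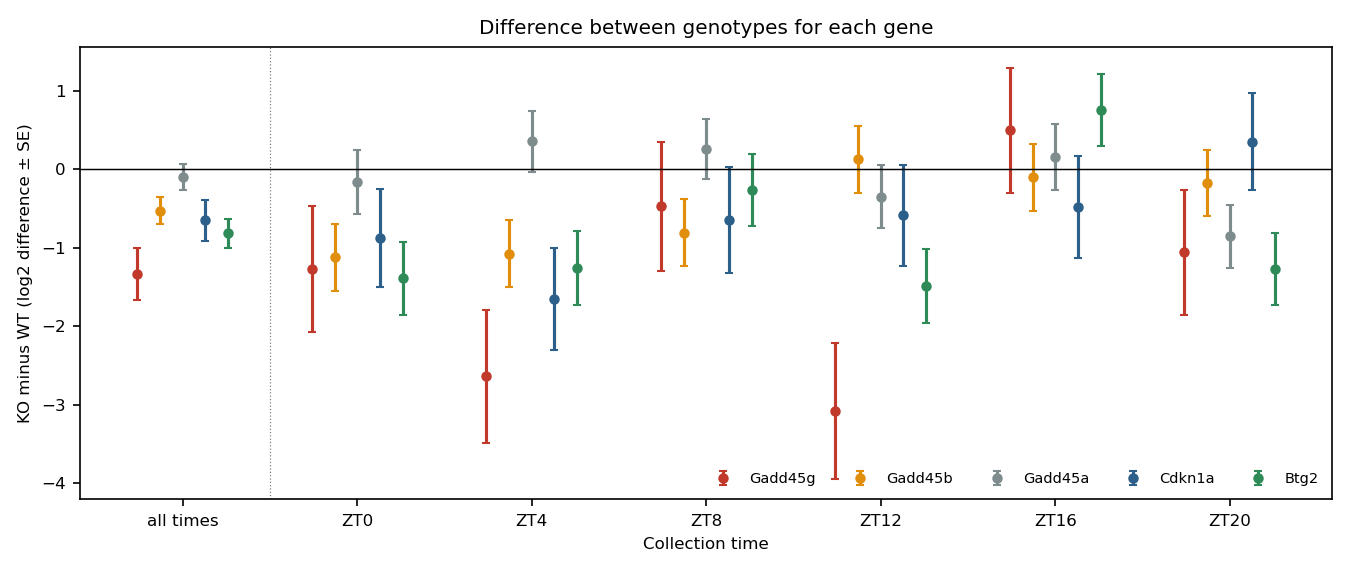
Points are KO minus WT differences on the log2 scale with their SE as bars, for the mean over all times and for each collection time; the line at 0 marks equal levels. Gadd45g reaches −2.64 at ZT4 and −3.08 at ZT12, Btg2 and Gadd45g are above 0 at ZT16, and Gadd45a lies on both sides of 0.

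Whether the KO minus WT difference varied between times was not used to choose the genes and could be tested. None of the 5 passed the interaction test of genotype with time, in which the edgeR quasi-likelihood test called 0.00733% of all genes, and the adjusted p was 0.953 for each of the 5. At an unadjusted p under 0.05 the edgeR test held 448 of the 13644 tested genes, Btg2 and Gadd45g among them. That is a smaller share than the 0.05 that chance alone gives, so nothing is read from it. DESeq2 gave no member past the threshold either. A difference that varies between times was thus not shown for these genes, nor was a constant one.

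Cdkn1a changed most strongly over the day in both genotypes. Its mean was lowest at ZT8, 3.703 ± 0.767 CPM in KO and 5.79 ± 2.29 CPM in WT mice, and highest at ZT20, 103 ± 81.9 CPM in KO and 80.6 ± 40.9 CPM in WT mice (SD, n = 4 each), a ratio of means of 27.8 in KO and 13.9 in WT mice. Without KO ZT20 replicate 1 the KO mean at ZT20 was 62.6 CPM and the ratio 16.9. The edgeR quasi-likelihood test of differences between the 6 times gave an adjusted p of 1.72e-05 in KO and 0.000407 in WT mice. A 24 h cosine fitted to log2 CPM had an amplitude, the distance from mean to peak, of 2.18 (SE 0.32) in KO and 1.94 (SE 0.25) in WT mice, and peaked at ZT20.1 (SE 0.57 h) in KO and ZT20.3 (SE 0.47 h) in WT mice. The edgeR test of the cosine gave an adjusted p of 3.34e-07 in KO and 3.57e-05 in WT mice. These 4 calls held when any 1 of the 48 libraries was left out.

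The other 4 genes passed the edgeR test between times in KO mice and not in WT mice, a split that other settings did not keep. In KO mice the edgeR adjusted p was 0.0131 for Gadd45g, 0.0352 for Gadd45b, 0.0311 for Gadd45a and 0.0378 for Btg2, so that, with Cdkn1a, 5 of 5 genes were past the threshold, against 9.74% of all genes. In WT mice it was 0.203 for Gadd45g, 0.244 for Gadd45b, 0.227 for Gadd45a and 0.0623 for Btg2, so that 1 of 5 was past it, against 8.55% of all genes. These 4 calls in KO mice depend on a few libraries: without both KO ZT16 replicate 2 and KO ZT20 replicate 1 (left out with their values known), only Cdkn1a passed (edgeR adjusted p 0.221 for Gadd45g, 0.313 for Gadd45b, 0.0537 for Gadd45a, 0.17 for Btg2). Mean age differed between times, and with age in the model Gadd45b (edgeR adjusted p 0.0551) and Btg2 (0.103) no longer passed; with body weight Gadd45a (0.0759) and Gadd45b (0.166) did not. By limma on log2 CPM only Cdkn1a passed in KO mice, and by DESeq2 Btg2 passed in WT mice (adjusted p 0.0187).

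Gadd45g had its highest mean in KO mice at ZT16, 83.2 ± 124 CPM (n = 3), and its lowest at ZT8, 8.55 ± 7.56 CPM (n = 4); in WT mice the highest was at ZT20, 88.6 ± 47.1 CPM, and the lowest at ZT8, 11.8 ± 6.33 CPM (SD, n = 4). The KO maximum rested on the mouse with 226 CPM: without KO ZT16 replicate 2 the ZT16 mean was 11.6 CPM and the highest KO mean was at ZT20, 42.6 CPM. Gadd45b was highest at ZT16 in both genotypes, 16.3 ± 9.09 CPM in KO (n = 3) and 17.5 ± 6.06 CPM in WT mice (n = 5), and without KO ZT16 replicate 2 the highest KO mean was at ZT20, 14.1 CPM. It was lowest at ZT4 in KO, 5.09 ± 0.820 CPM, and at ZT12 in WT mice, 8.32 ± 3.23 CPM (SD, n = 4). Gadd45a had another order of times: it was highest at ZT8 in both genotypes, 7.71 ± 2.06 CPM in KO and 6.44 ± 2.48 CPM in WT mice, when Gadd45g and Cdkn1a were at their lowest in both. Its lowest mean was 3.21 ± 0.752 CPM at ZT20 in KO (n = 4) and 3.05 ± 1.38 CPM at ZT16 in WT mice (SD, n = 5). Btg2 was highest at ZT16 in KO, 27.05 ± 32.8 CPM (n = 3), and at ZT20 in WT mice, 43.5 ± 25.5 CPM (SD, n = 4). Without KO ZT16 replicate 2 the Btg2 mean at ZT16 in KO mice was 8.22 CPM, and the highest KO mean was at ZT20, 18.1 CPM.

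The cosine test gave 4 of 5 genes past the threshold in KO mice, against 17% of all genes, and 1 of 5 in WT mice, against 16.3% of all genes. In KO mice the edgeR adjusted p was 0.00535 for Gadd45g, 0.0025 for Gadd45b, 0.0177 for Gadd45a and 0.0723 for Btg2. In WT mice it was 0.388 for Gadd45g, 0.0938 for Gadd45b, 0.491 for Gadd45a and 0.0776 for Btg2. The fitted amplitude of Gadd45g was 1.34 (SE 0.35) in KO and 1.16 (SE 0.33) in WT mice, and that of Gadd45b was 0.74 (SE 0.17) in KO and 0.55 (SE 0.17) in WT mice. That of Gadd45a was 0.66 (SE 0.17) in KO and 0.30 (SE 0.19) in WT mice, and that of Btg2 was 0.49 (SE 0.25) in KO and 0.53 (SE 0.17) in WT mice. No member passed the test of the difference in rhythm (edgeR adjusted p 1 for each; 0.00733% of all genes passed), so the genes were not shown to be rhythmic in one genotype more than in the other. At an unadjusted p under 0.05 that test held 365 of the 13644 tested genes, Gadd45b among them, again a smaller share than 0.05. DESeq2 gave no member past the threshold. The 3 calls in KO mice besides Cdkn1a held when any 1 library was left out, and none of them without both high KO mice (edgeR adjusted p 0.092 for Gadd45g, 0.0862 for Gadd45b, 0.0573 for Gadd45a). With limma on log2 CPM, Gadd45g (adjusted p 0.0272) and Gadd45b (0.0466) also passed in WT mice.

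Fitted peaks of 4 genes fell from ZT17.3 to ZT21.4, and those of Gadd45a at ZT5.12 and ZT6.19. Gadd45g peaked at ZT19.8 (SE 1.02 h) in KO and ZT19.6 (SE 1.09 h) in WT mice, and Gadd45b at ZT17.3 (SE 0.87 h) in KO and ZT20.4 (SE 1.18 h) in WT mice. Btg2 peaked at ZT18.6 (SE 1.96 h) in KO and ZT21.4 (SE 1.18 h) in WT mice, and Gadd45a at ZT6.19 (SE 0.96 h) in KO and ZT5.12 (SE 2.42 h) in WT mice. Cosine peaks in genes and genotypes that missed the threshold are fitted values only.

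**Figure D3:**
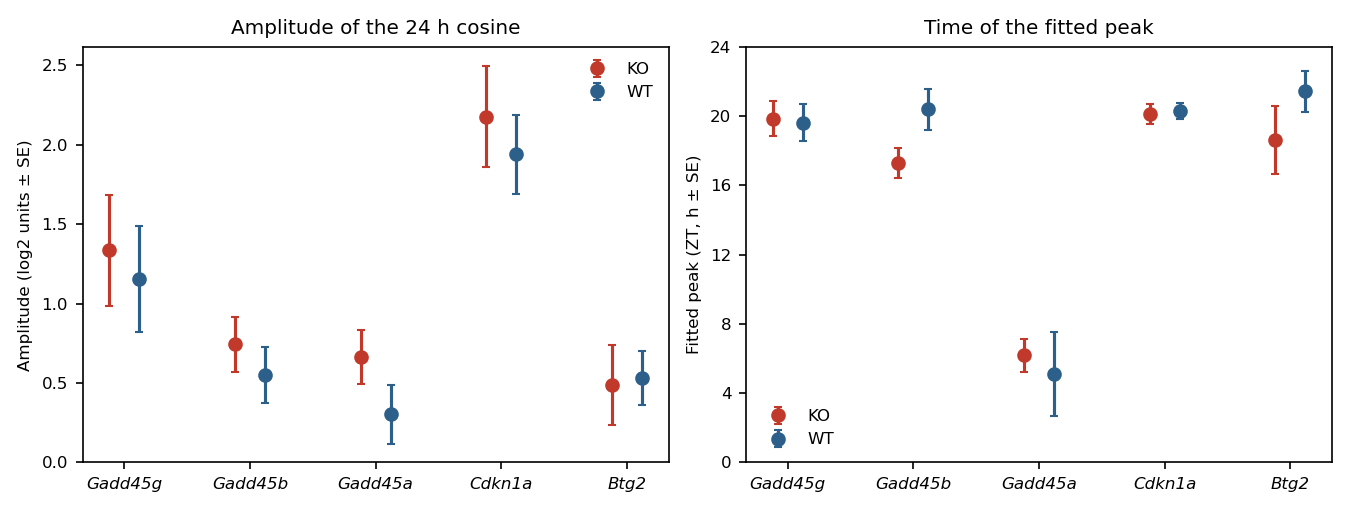
The left panel gives the amplitude of the fitted 24 h cosine in log2 units and the right panel its peak time, each with its SE as a bar, for KO mice (left of each pair) and WT mice (right). Cdkn1a has the largest amplitudes, 2.18 in KO and 1.94 in WT mice, and Gadd45a is the only gene that peaks near ZT6.

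Several of the genes varied together from mouse to mouse once the mean of each genotype and time was subtracted. Over the 48 mice, 5 of the 10 pairs passed a two-sided permutation test within groups, with 100000 draws and Benjamini-Hochberg adjustment over the 10 pairs. Pairs this alike were common in the data: of all pairs of tested genes, 13.6% had a within-group r as high as the weakest of the 5 (r = 0.45), so nothing particular to these genes is read from the count. Gadd45g and Btg2 had r = 0.69 and Spearman's rho = 0.47 (permutation p = 0.00022 and 0.00562; adjusted 0.0022 and 0.0202). Cdkn1a and Btg2 had r = 0.65 and rho = 0.49 (permutation p = 0.00099 and 0.00287; adjusted 0.00495 and 0.0202). Gadd45g and Cdkn1a had r = 0.61 and rho = 0.46 (permutation p = 0.00216 and 0.00606; adjusted 0.0072 and 0.0202). A mouse high for its group in 1 of these 3 genes therefore tended to be high in the other two as well. Without the 2 mice farthest from the median of the first gene, r was 0.57 for Gadd45g and Btg2, 0.46 for Cdkn1a and Btg2, and 0.49 for Gadd45g and Cdkn1a. The group means were still those of all 48 mice, here and for the pairs below, so the mice left out still shaped these values. With group means taken again after any 1 library was left out, the lowest r was 0.56, 0.52 and 0.49 in the same order.

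Gadd45b went with Cdkn1a (r = 0.46, rho = 0.43; permutation p = 0.00511 and 0.00807; adjusted 0.0128 and 0.0202), and r remained 0.46 without the 2 farthest mice. Gadd45b and Gadd45g had r = 0.45 and rho = 0.36 (permutation p = 0.0103 and 0.036; adjusted 0.0207 and 0.072), so this pair passed by r and not by rho; it lost its call without KO ZT16 replicate 2 (adjusted permutation p = 0.0749), and r was 0.49 without the 2 farthest mice. Gadd45b and Btg2 (r = 0.20) did not pass. None of the 4 pairs with Gadd45a passed, with r from −0.30 to −0.08. In KO mice alone its r was −0.50 with Gadd45g, −0.65 with Cdkn1a and −0.51 with Btg2, and in WT mice alone it was 0.29 with Gadd45g, 0.09 with Cdkn1a and 0.49 with Btg2. For the pairs among the other 3 genes, the 23 KO mice alone gave r = 0.83 for Gadd45g and Btg2, 0.70 for Gadd45g and Cdkn1a, and 0.75 for Cdkn1a and Btg2. The 25 WT mice alone gave 0.49, 0.50 and 0.43 for the same pairs, and no difference in r between genotypes was tested.

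**Figure D4:**
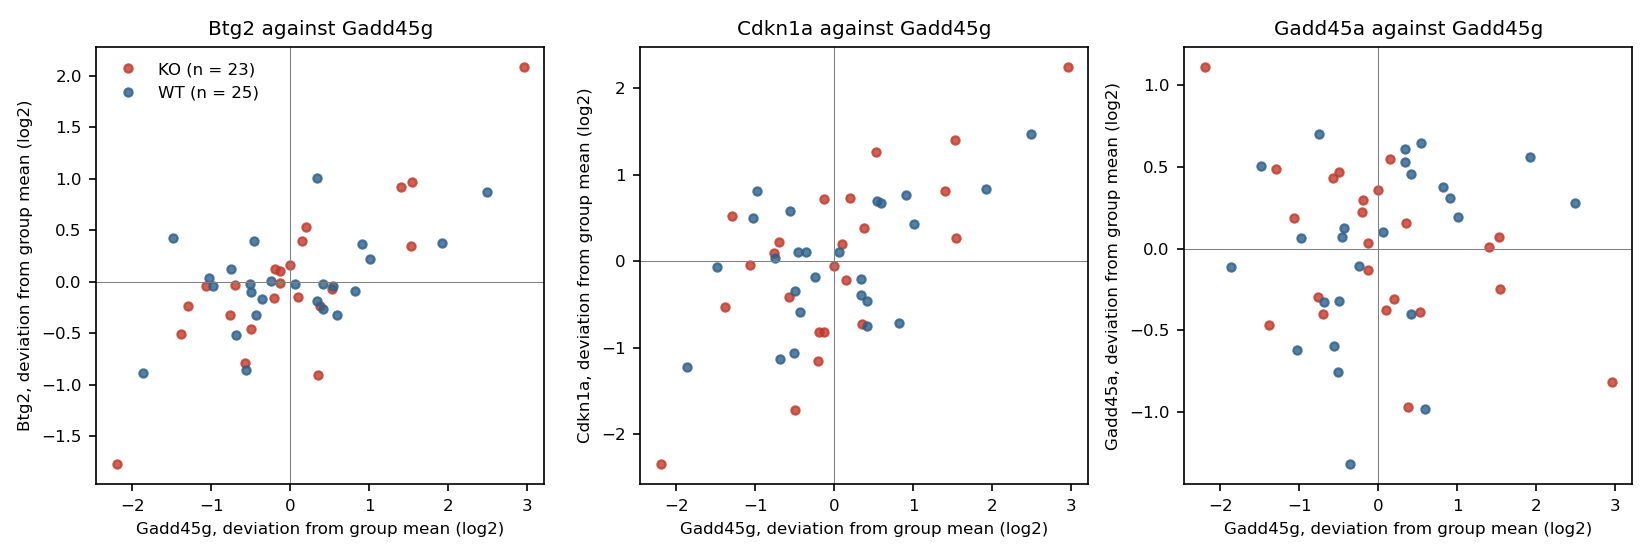
Each point is 1 mouse, placed by its deviation from its group mean on the log2 scale, Gadd45g on the horizontal axis and Btg2, Cdkn1a or Gadd45a on the vertical axis, for 23 KO and 25 WT mice. Btg2 and Cdkn1a rise with Gadd45g (r = 0.69 and 0.61), Gadd45a has r = −0.09, and 1 KO mouse lies at each end of the Gadd45g axis.

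These 3 genes also moved with the largest common axis of variation among mice. The first principal component of the deviations, over genes with a mean log2 CPM above 2, held 49.8% of the variance and correlated with Gadd45g (r = −0.54), Cdkn1a (r = −0.52) and Btg2 (r = −0.50), and less with Gadd45a (r = −0.13) and Gadd45b (r = 0.01); these are descriptions over 48 mice, with genes that share the same libraries. Removing that component left the same 5 pairs past the threshold and added Gadd45a with Cdkn1a (r = −0.43, adjusted permutation p = 0.0296). Body weight within groups did not go with any of the 5 genes beyond the threshold, with r from −0.06 to 0.21 over 48 mice (permutation test, adjusted p 0.854 for each of the 5). In KO mice alone r was 0.27 for Gadd45g, 0.07 for Gadd45b, −0.15 for Gadd45a, 0.25 for Cdkn1a and 0.37 for Btg2. In WT mice alone it was −0.33, −0.17, 0.05, −0.44 and −0.19 in the same order. These values by genotype were not tested.

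The genes whose level over the 48 libraries was most like that of a member, among 10904 other genes (mean log2 CPM 1 or more), were named by Pearson's r as a description that includes the shared effects of time, genotype and library. Gadd45g went with Slc25a25 (r = 0.86), a mitochondrial ATP-magnesium/phosphate carrier, Igfbp1 (r = 0.84), a fasting-induced binding protein of insulin-like growth factors, and Arl4d (r = 0.81), a small GTPase. Btg2 went with Jun (r = 0.78), a subunit of AP-1, with Gadd45g (r = 0.77) and with Mafk (r = 0.74), a small MAF transcription factor.

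Cdkn1a went with Slc45a3 (r = 0.89), a transporter, Ube2g2 (r = 0.87), a ubiquitin-conjugating enzyme of the endoplasmic reticulum, and Plin5 (r = 0.85), a lipid droplet protein. Gadd45b went with Rabgef1 (r = 0.73), Gdf10 (r = 0.70), a growth factor of the TGF-beta family, and Slc25a47 (r = 0.69), a liver mitochondrial carrier. Gadd45a went with Tbc1d10a (r = 0.68), Fam149a (r = 0.66) and Irf1 (r = 0.64), an interferon-responsive transcription factor. With group means removed, 2 of the 3 genes most like Gadd45b were again among its 3, 1 of 3 for Gadd45g, and none for Gadd45a, Cdkn1a and Btg2.

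The wider pathway was described with 8 lists of 105 entries, 99 of which were tested genes. Over all times 1 of the 99 was past the threshold, and it was lower in KO mice, against 1.41% of all tested genes; 64 of the 99 had a difference below 0, and their median was −0.09 (log2) against −0.0047 over all genes. The gene was Tob1 (ENSMUSG00000037573, mm9 chr11:94072768-94076809), a relative of Btg2 that also binds the CCR4-NOT deadenylase. Tob1 was 56.0, 90.4 and 171 CPM in KO mice and 85.6, 142 and 193 CPM in WT mice (lowest, median and highest), with means of 96.9 ± 30.6 and 142 ± 34.2 CPM in KO and WT mice (SD). It was lower in KO mice by 0.55 on the log2 scale (SE 0.12, edgeR quasi-likelihood test, adjusted p 0.0103). Tob1 remained past the threshold when any 1 of the 48 libraries was left out (highest edgeR adjusted p 0.033). The lists were chosen with earlier results of these data known, so the Tob1 call is a description and no independent support. Nothing about the lists is read from the count of 1 in 99. It was lower at 6 of 6 times, which describes the same contrast and is no further test. The genotypes overlapped, and Tob1 was not rhythmic past the threshold in KO (edgeR adjusted p 0.967) or WT mice (0.918).

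None of the 19 tested p53 targets passed, 12 of which had a difference below 0 (median −0.09); the smallest p was that of Plk2, a polo-like kinase, with −0.37 (SE 0.11; edgeR adjusted p 0.0917). None of the 12 tested p38 and JNK pathway genes passed; Map2k6, the kinase that activates p38, had −0.63 (SE 0.19; edgeR adjusted p 0.0917) and was rhythmic in both KO (adjusted p 1.89e-05) and WT mice (0.000184). None of the 12 other growth arrest and DNA damage inducible genes passed; Ppp1r15a, the GADD34 phosphatase subunit, had −0.51 (SE 0.16; edgeR adjusted p 0.0917). These 3 genes were each lower at 6 of 6 times without passing the test. They were named by their p over the same 6 times, so the count of times is no further evidence. Of all genes, 17.5% were lower at 5 times or more.

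None of the 20 upstream transcription factors passed, and Klf4, a zinc finger factor that activates Cdkn1a in several tissues, had the smallest p with −0.43 (SE 0.15; edgeR adjusted p 0.123). None of the 4 tested inhibitors of cyclin-dependent kinases other than Cdkn1a passed (Cdkn1c, 0.23, SE 0.10, edgeR adjusted p 0.251), nor any of the 13 cyclins, kinases and PCNA (Cdk6, 0.29, SE 0.12, edgeR adjusted p 0.203). None of the 5 tested DNA demethylation partners of GADD45 passed (Tet3, −0.26, SE 0.13, edgeR adjusted p 0.284). A cosine was past the threshold for 19 of the 99 list genes in KO mice, where it was for 17% of all genes, and for 23 in WT mice, where it was for 16.3%.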

How the data were processed

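Liver polyA RNA of 48 mice was sequenced from stranded TruSeq libraries made with 13 PCR cycles, per the labels' protocols. Reads were handled with CASAVA and aligned with STAR 2.4.1d, and the build is mm9, per the submitters' processing notes. The file that the authors deposited holds whole-number counts of sense-strand reads for 22354 genes, with identifiers, symbols and coordinates, per the file headers; the counting program is not given in the sources used here. The library sums without Alb, 12841969 to 13009797, lay close together, and how the authors arrived at that is not given either. The spread between mice includes counting error, and the smallest member counts, 12 for Gadd45a, limit its precision.

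The counts went into edgeR 4.0.16 under R 4.3.3. filterByExpr left 13644 genes, TMM factors were 0.891 to 1.11, and Alb, 5.66 to 14.6% of counts, was left out after its values were seen to be whole multiples of a step of 1312 reads, within 0.000942 of a step. A quasi-likelihood model with 12 group means gave KO minus WT (mean of the 6 differences and each time), the interaction, and tests between times in each genotype. A second model with a mean, a cosine and a sine of 24 h per genotype gave the rhythm tests. All p-values were adjusted by Benjamini-Hochberg over all tested genes, with a threshold of 0.05. Amplitudes and peaks come from least squares on log2 CPM (prior count 2). Correlations used deviations from group means. Python 3.11.15 with numpy 2.4.6 and scipy 1.17.1 ran the permutations. The edgeR fits were also run on simulated counts with known answers. There, KO minus WT over all times and rhythm in WT mice were checked for genes recovered and false calls. No interaction and no difference in rhythm was simulated, and for these tests only calls were counted. The other edgeR tests, DESeq2 and limma were not checked in this way.

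The members, the 8 lists and the cell type markers were chosen with earlier results of these data known. The genes named are the 5 members, for each list at most 4 genes past the threshold, ordered by p, or else the gene of smallest p, and for each member the 3 genes of highest r over 48 libraries. Alternatives were DESeq2 1.42.0 and its size factors, no filter, the replicate block, body weight, the first principal component, Alb kept, a prior count of 0.5, Spearman's rho and leaving out each library; age, limma 3.58.1 on log2 CPM and leaving out both high KO mice were added after the data were seen.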

Additional observations from a re-analysis of the deposited data

Results flagged for a closer look

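A mouse was singled out where its distance to the next mouse took up an unusually large share of the range of its group of 4 or 5. Of 55 sets of 1 gene in 1 group, 3 met this mark, where chance alone gives about 1 in 20. For Gadd45g at ZT12, KO replicate 3 had 12.2 CPM where the other KO mice had 7.23 to 7.67 CPM, and WT replicate 4 had 193 CPM where the other WT mice had 25.6 to 37.2 CPM. WT replicate 4 also had a neutrophil marker sum of 463 CPM, where the other WT mice at ZT12 had 21.6 to 146 CPM, and its part in the Gadd45g value was not tested. At ZT0, WT replicate 3 had a sum of 1778 CPM and the lowest Gadd45g of its group, 43.7 CPM. Both of the mice singled out at ZT12 lay above the rest of their own group, and all KO mice at ZT12 remained below all WT mice. For Btg2 at ZT4, KO replicate 1 had 13.0 CPM where the other KO mice had 4.93 to 5.80 CPM. The group of 3 KO mice at ZT16, which holds the highest Gadd45g value, was too small for this mark.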

How the results depend on the processing

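No KO minus WT difference of a member over all times changed sign under any alternative. Of the 5 members, 2 were past the threshold over all times. That count was 1 with the replicate block, 0 with body weight, 4 with the first principal component and 4 without both high KO mice, and 1 to 4 when 1 library was left out. Since the contrast chose the genes, nothing is read from these counts of members or from those at single times. Genes past the threshold over all times numbered 193, and 122 with no filter, 354 by DESeq2, 127 with the block, 37 with body weight, 2890 with the component and 582 without both high KO mice (101 to 476 with 1 library left out). For the interaction the count was 1 gene, and 7 by DESeq2, 0 with the block, 1926 with the component, 0 by limma and 0 without both high KO mice (0 to 3), with 0 members except 1, Btg2, with the component (0 to 0). Between times in KO mice, the 5 members were 3 with body weight, 3 with age, 1 by limma and 1 without both high KO mice (2 to 5), and the 1329 genes were 2238 by DESeq2 and 6247 with the component (812 to 2623). Between times in WT mice, the 1 member was 2 by DESeq2, 3 with the component and 2 without both high KO mice (1 to 2), and the 1166 genes were 1852 by DESeq2 and 5865 with the component (949 to 1514). For rhythm in KO mice, 4 members were 1 without both high KO mice (4 to 5), and 2321 genes were 5652 with the component and 1402 without both high KO mice (1629 to 3721). For rhythm in WT mice, 1 member was 2 with the component, 3 by limma and 2 without both high KO mice (1 to 2), and 2227 genes were 4665 with the component (1875 to 2985). For the difference in rhythm, 0 members passed throughout (0 to 0), and 1 gene was 5 by DESeq2, 0 with the block and 2 with the component (1 to 2). At single times the 0 members were 4 with the component (0 to 2), and the 10 genes were 225 by DESeq2, 2 with the block, 3 with body weight, 5336 with the component and 39 without both high KO mice (2 to 3360, the highest without KO ZT4 replicate 1). Of the list genes, 1 past the threshold was 4 by DESeq2, 22 with the component, 2 with age and 11 without both high KO mice (1 to 8). Of the 10 pairs of members, 5 past the threshold were 4 by Spearman's rho and 6 with the component removed (4 to 5 with 1 library left out); against body weight, 0 were 0 to 0. The component was built from the same deviations, so it lowers the spread by construction; the cause of the other shifts was not tested. The replicate block takes mice of the same number within a time as pairs, and with it the difference over all times was −1.41 for Gadd45g and −0.94 for Btg2. Of 23 such KO and WT pairs, 22 had the same age label, but no label says what a number marks. Correlations of their deviations ran from −0.49 to 0.60 (median 0.16), 14 of them over 0.1. Whether same-numbered mice were matched is thus not known, and the main tests, which took all mice as unpaired, ignore any such matching. The tests between times and of rhythm within a genotype could not be fitted with the block, since numbers are nested in times. Depth limits Gadd45a most.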
